A study of Mus musculus with 4 samples.

Results

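The cells described here are the part of mouse bone marrow that carries the surface profile of long-term blood stem cells: high CD150, low CD48, low CD135 and low CD34. They were chosen from antibody counts, not from RNA. Each cell barcode had counts for 6 barcoded antibodies, and each count was turned into a centred log ratio, which is the natural log of 1 plus the count minus the mean of that log over the 6 antibodies of the cell. A cell was in the stem cell (HSC) gate with a value above -0.28 for CD150, at or below 1.73 for CD48 and at or below -0.94 for CD135. A gate cell at or below -0.01 for CD34 was CD34-low. Under this rule 2412 of 18168 cells in 3 libraries were CD34-low HSC-gate cells, namely 958 of 7274 in the control library, 1208 of 6101 in the Mll3-labelled library and 246 of 4793 in the Mll4-labelled library. The other cells of the HSC gate, 722, 1456 and 103 in the same order, were CD34-high and serve as the nearest comparison.

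Haematopoietic stem cells replace all blood lineages for life and divide rarely. In the adult mouse, CD150 (the protein of Slamf1) without CD48 marks the stem cell compartment, low CD34 marks its long-term repopulating fraction, and CD201 (the protein of Procr) is another marker of that fraction. CD135 (the protein of Flt3) appears as cells become multipotent progenitors (MPP) with lymphoid potential. Kmt2c and Kmt2d encode Mll3 and Mll4, large enzymes that methylate lysine 4 of histone H3 at enhancers.

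The series holds 4 libraries of donor-derived (CD45.2+) Lin-Sca1+Kit+ bone marrow cells, a population called LSK, taken 10 weeks after transplantation. Each library stands for 1 genotype: control LSK, Mll3 deleted LSK, Mll4 deleted LSK and Mll3/4 deleted LSK. The first 3 are used here. The age of the donors, the number of mice behind a library, the allele, the Cre or other means of deletion and the strain of the hosts are not given in the labels, so each genotype is 1 library without a replicate. Cells were stained with the antibodies against CD150, CD48, CD201, CD135, CD117 and CD34 and run on the 10x Genomics droplet platform, which counts unique molecular identifiers (UMIs) at the 3' ends of transcripts.

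Kept barcodes had 1000 genes or more and no more than 10% mitochondrial UMIs. The 3 libraries then held between 105907176 and 120700343 UMIs. The CD34-low cells gave 12427082, 18297094 and 6282594 UMIs in control, Mll3-labelled and Mll4-labelled cells, and this order is kept for every list of 3 values below. The median CD34-low cell had 11245, 12984 and 22683.5 UMIs and 3368.5, 3738 and 4939.5 genes, and the median CD34-high cell had 12542.5, 16392.5 and 28172 UMIs. Cells of the Mll4-labelled library were thus the deepest in both sets, and CD34-high cells were deeper than CD34-low cells in each library. Pairs of libraries shared between 7 and 14 barcodes. The levels below are UMIs per 1000000 UMIs of the cell set (CPM), so that fewer cells with a transcript and less of it per cell cannot be told apart.

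The targeted genes were read first. In CD34-low cells, Kmt2c (chromosome 5, 25271798-25498783 in GRCm38) had 81.9, 37.5 and 69.6 CPM. Its log2 ratio to control was -1.13 (95% interval -1.27 to -0.99, counting error only) in the Mll3-labelled library and -0.24 (-0.40 to -0.07) in the Mll4-labelled library. Kmt2d (chromosome 15, 98831669-98871204) had 25.2, 22.2 and 21.01 CPM from 313, 407 and 132 UMIs, with log2 ratios of -0.18 (-0.40 to 0.04) and -0.26 (-0.57 to 0.04). Kmt2d was therefore not detectably lower in the Mll4-labelled cells. The deleted exons are not given in the labels and 3' end counts need not lie in them, so these levels do not check the Mll4 label, and the libraries are named by their labels throughout.

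CD34-low cells made up 57.0% (exact binomial 95% interval 54.6 to 59.4), 45.3% (43.4 to 47.3) and 70.5% (65.4 to 75.2) of the HSC gate. They made up 13.2% (12.4 to 14.0), 19.8% (18.8 to 20.8) and 5.13% (4.52 to 5.80) of all cells. These intervals cover the sampling of cells within a library only. With 1 library per genotype, they do not measure the spread between animals of a genotype. The Mll4-labelled library thus had the fewest CD34-low cells among its cells and the largest CD34-low share of its gate, and the Mll3-labelled library the reverse. The same limits were used in every library, and the HSC gate held 1680, 2664 and 349 cells. Over all cells, the median CD150 value was -1.34, -0.29 and -1.37 and the median CD48 value was 2.12, 0.78 and 3.08. How far these shares depend on differences in antibody signal between libraries was not tested. CD34 values ran through the threshold without a gap: the highest values inside were -0.0121, -0.0113 and -0.0118 and the lowest outside were -0.00859, -0.00903 and -0.00508. Members had median CD34 values of -0.552, -0.648 and -0.756, and 161, 170 and 31 gate cells lay within 0.1 of the threshold. CD34-low is therefore a range of one continuous antibody signal.

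CD201 was counted but set no threshold. It took 12.4%, 9.87% and 8.63% of the antibody counts of CD34-low cells against 6.01%, 3.05% and 4.38% in CD34-high cells. The median log2 ratio of CD201 to CD117, the Kit receptor that all sorted cells carry, was -1.98, -2.10 and -2.19 in CD34-low cells and -3.05, -4.42 and -3.00 in CD34-high cells. CD201 was thus higher in the CD34-low cells of each library, and the ranges of the 3 libraries did not overlap. CD201 enters the mean that centres the CD34 value, so it is not fully independent of the rule, and 3 pairs of libraries cannot pass 0.05 in an exact permutation test. CD150, which the rule used, took 31.3%, 45.9% and 38.8% of the counts of CD34-low cells and 16.2%, 21.3% and 18.2% of those of CD34-high cells.

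The RNA of the 4 marker genes was present in CD34-low cells of every library. Procr (chromosome 2, 155751117-155755471) had 66.6, 68.0 and 43.8 CPM, Mecom, a stem cell transcription factor, had 160, 165 and 423, Hlf, another such factor, had 337, 322 and 406, and Slamf1 had 36.9, 38.3 and 47.0. After each cell was thinned to 3000 UMIs, at least 1 Slamf1 UMI was found in 9.20%, 11.6% and 9.39% of CD34-low cells and in 0%, 0% and 0.166% of cells of the MPP4 gate (CD150 low, CD135 high). For 0 of the MPP4 cells the exact interval reaches 0.428% and 0.577% in control and Mll3-labelled cells, whose median depths were 14765 and 15168 UMIs. Unthinned, the shares were 34.3%, 39.3% and 56.1% in CD34-low cells and 0.924%, 1.25% and 1.42% in MPP4 cells. Procr was found in 21.9%, 21.5% and 16.3% of thinned CD34-low cells and in 5.23%, 4.08% and 1.49% of thinned MPP4 cells. Hlf was found in 58.8%, 58.8% and 63.7% of thinned CD34-low cells and in 40.4%, 37.5% and 17.9% of thinned MPP4 cells. Procr, Mecom and Hlf were also found in cells of the MPP1 gate (CD150 low, CD48 and CD135 low). There, thinned cells with a UMI were 18.5%, 11.5% and 13.2% for Procr and 32.8%, 31.8% and 58.2% for Mecom, against 38.9%, 39.1% and 74.3% for Mecom in CD34-low cells. For Hlf they were 70.6%, 66.6% and 68.9%, above the CD34-low share in each library, and for Slamf1, whose protein separates the 2 gates, 1.12%, 0.574% and 1.07%.

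To ask what distinguishes CD34-low from CD34-high cells inside the same gate, UMIs were summed per library and cell set and compared with edgeR's quasi-likelihood test with the library as a block. Stem cell, quiescence, immediate early and interferon genes were higher in CD34-low cells, and genes of DNA synthesis, of mitosis and of lymphoid priming were lower. Of 12535 genes tested, 1050 were higher (8.38%) and 1045 lower (8.34%) in CD34-low cells at a Benjamini-Hochberg adjusted p under 0.05, of which 221 and 55 differed at least 2-fold. The median log2 fold change of all genes was 0.01. The p-values measure the spread of the difference between 3 libraries that also differ in genotype. DESeq2 with the same block gave 348 and 413 genes, cells thinned to 3000 UMIs gave 532 and 492, and leaving out the Mll3-labelled library gave 459 and 483. Without the library block no gene passed in edgeR, with 511 genes at an unadjusted p under 0.05.

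**Figure D1:**
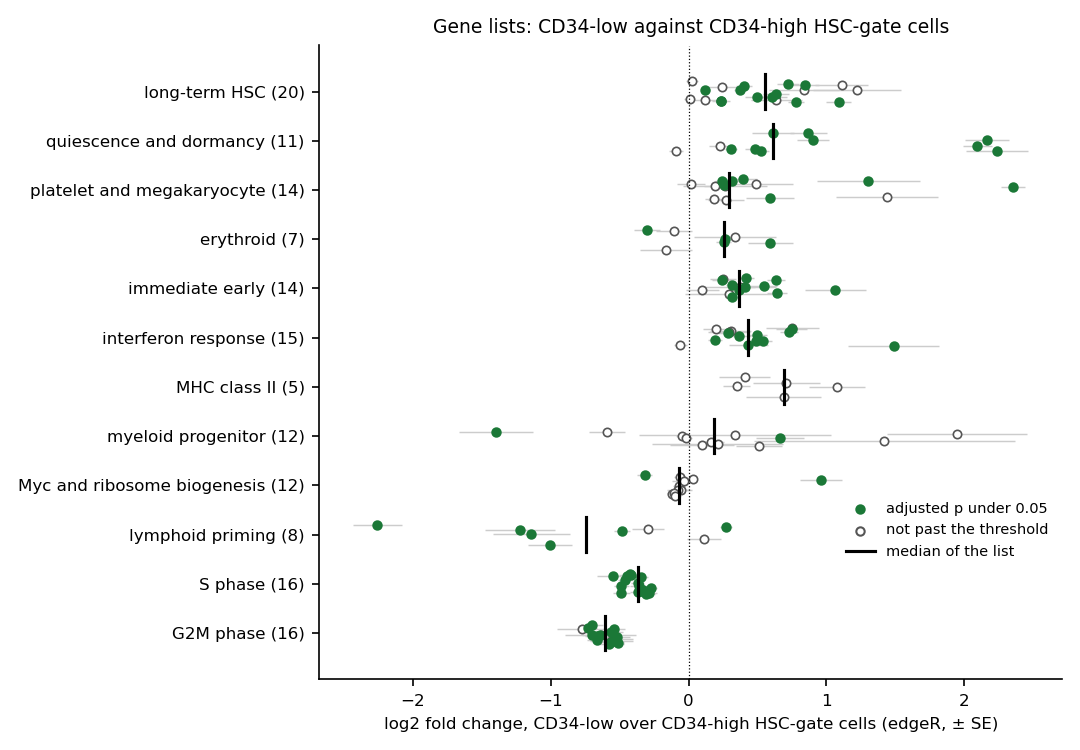
Each point is a gene, placed by its log2 fold change between CD34-low and CD34-high HSC-gate cells, in 12 gene lists whose number of tested genes stands in parentheses. Error bars are approximate standard errors derived from the F statistic of the test. Filled points had an edgeR adjusted p under 0.05, and the bar is the list's median: all 16 S phase points lie below 0, and the filled points of the long-term HSC list all lie above it.

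The long-term HSC list held 20 genes that were all tested, of which 12 were higher and none lower, with a median log2 fold change of 0.55. Medians within the libraries were 0.39, 0.56 and 0.51, and 17, 20 and 17 of the 20 genes were above 0. Among the 12 were Mecom, Slamf1, Fgd5, Hoxb5, Ctnnal1, Pdzk1ip1, Gata2, Esam, Prdm16, Angpt1 and Socs2. Slamf1 encodes an antigen of the rule, and its 36.9, 38.3 and 47.0 CPM in CD34-low against 19.2, 19.4 and 14.6 in CD34-high cells are a description. Fgd5, a gene used to mark stem cells in reporter mice, had 14.4, 24.6 and 16.9 CPM against 8.97, 13.0 and 10.9. It was higher in each library, and the sets did not overlap, since the lowest CD34-low value was above the highest CD34-high value. The log2 fold change was 0.84 ± 0.10 (adjusted p = 6.1e-06). Here and below, the value after ± is the size of the log2 fold change divided by the square root of the test's F statistic. It is an approximate standard error (SE) and was not fitted separately. Hoxb5, a homeobox gene found in long-term HSCs, had 15.2, 13.9 and 29.1 CPM against 11.7, 8.74 and 17.9, so that the libraries overlapped between sets but each pair rose, by a log2 of 0.61 ± 0.11 (adjusted p = 0.00034). Socs2, a feedback inhibitor of cytokine signalling, had 85.7, 106 and 94.4 CPM against 54.4, 57.7 and 60.7. These ranges did not overlap, and the log2 fold change was 0.78 ± 0.06 (adjusted p = 5.8e-09).

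Several defining stem cell genes did not pass. Hlf had 337, 322 and 406 CPM in CD34-low and 359, 297 and 412 in CD34-high cells, a log2 fold change of 0.03 ± 0.04 (adjusted p = 0.76), so it was lower in 2 of the 3 libraries and higher in 1. Meis1, a homeobox partner of Hox proteins, was at 0.01 ± 0.04 (adjusted p = 0.95). Procr had 66.6, 68.0 and 43.8 CPM against 51.2, 29.2 and 28.2, higher in 3 of 3 libraries, but the size varied and the log2 value of 0.84 ± 0.25 had an adjusted p of 0.21. Mllt3, a chromatin reader that sustains stem cell programmes, had 160, 211 and 221 CPM against 95.6, 78.6 and 109. Its ranges did not overlap, yet with a log2 value of 1.11 ± 0.19 its adjusted p was 0.088. Ly6a, which encodes Sca1, was at 0.64 ± 0.19 (adjusted p = 0.19).

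**Figure D2:**
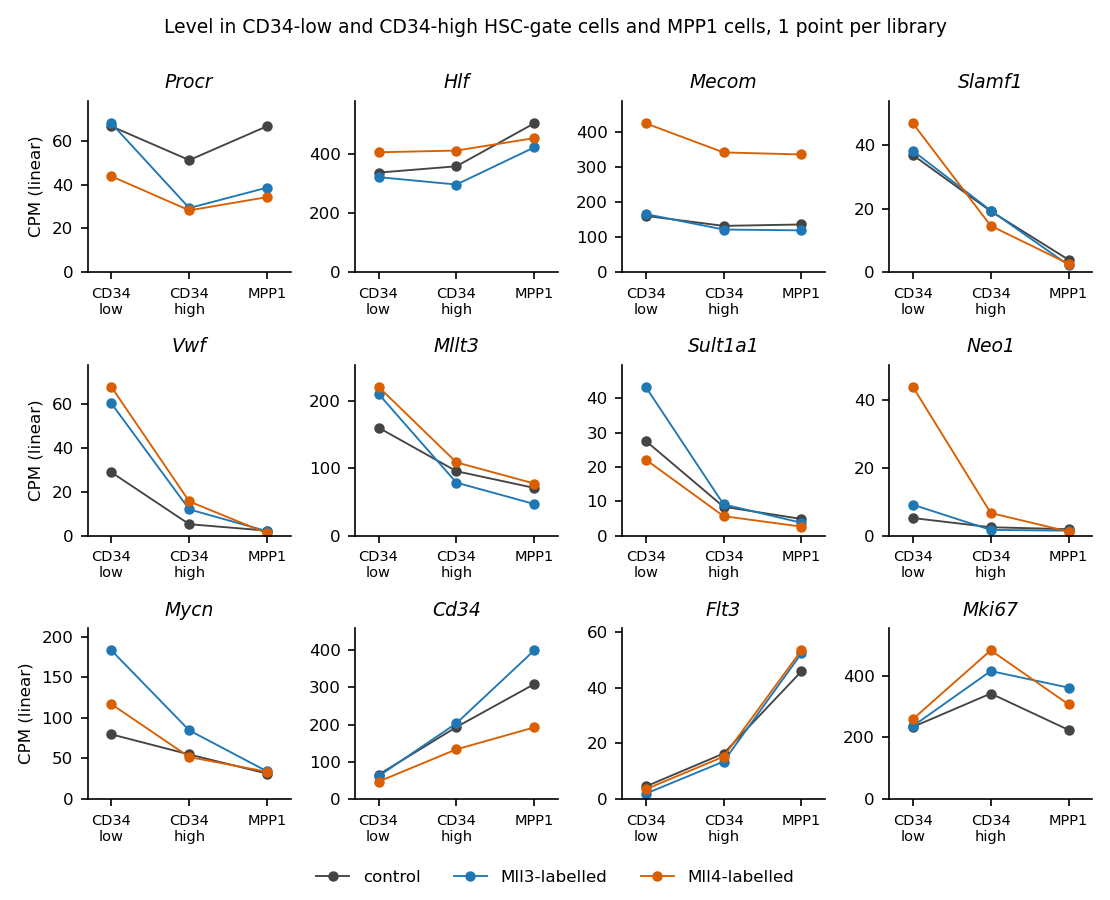
Levels of 12 genes in CPM, 1 point per library, in CD34-low, CD34-high and MPP1 gate cells, with lines joining the sets of a library. Vwf, Sult1a1 and Mllt3 were highest in the CD34-low cells of each library, Cd34 and Flt3 were lowest there, Mki67 was lowest there in 2 of the 3 libraries, and Hlf hardly differed between the CD34-low and CD34-high sets.

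Of 11 tested genes of the quiescence and dormancy list, 9 were higher and none lower, with a median of 0.61. Sult1a1, a sulfotransferase gene linked to resting HSCs (chromosome 7, 126672865-126676432), had 27.6, 43.3 and 22.1 CPM in CD34-low against 8.38, 9.08 and 5.64 in CD34-high cells. The sets did not overlap, with a log2 fold change of 2.10 ± 0.11 (adjusted p = 1.5e-11). Cdkn1c, the p57 inhibitor of cyclin-dependent kinases, had 50.5, 58.9 and 49.0 CPM against 33.6, 41.9 and 44.8. It was above the CD34-high range in every library, by a log2 of 0.48 ± 0.07 (adjusted p = 5.4e-05). Clu, a secreted chaperone, had 5.07, 20.1 and 23.6 CPM against 0.585, 4.81 and 5.97, with 2.16 ± 0.16 (adjusted p = 5.8e-09). Each pair was higher, and the control CD34-low value lay inside the CD34-high range. Neo1, a netrin receptor, had 5.15, 9.07 and 43.8 CPM against 2.44, 1.65 and 6.63. The Mll4-labelled cells stood far above the others, and the log2 fold change was 2.24 ± 0.23 (adjusted p = 1.7e-05). Nupr1, Clca3a1, Ndn, Ghr and Txnip were the other 5 that rose. Cdkn1b, the p27 inhibitor, was at -0.09 (adjusted p = 0.27), and Btg2 did not pass either.

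Cd34 RNA followed the CD34 antibody, as a description, since that antibody split the gate. The limits for CD48 and CD135 were the same for both sets. Cd34 RNA had 65.3, 61.5 and 46.8 CPM in CD34-low and 194, 204 and 134 in CD34-high cells. Flt3 RNA had 4.51, 1.91 and 3.50 CPM against 16.4, 13.5 and 15.3, and Cd48 RNA had 4.43, 1.42 and 2.87 against 12.2, 6.91 and 7.63. None of these RNA ranges overlapped. The CD135 antibody hardly differed between the sets, with median values of -1.53, -1.58 and -1.55 in CD34-low against -1.58, -1.54 and -1.54 in CD34-high cells. Both sets had passed the same CD135 limit, and median CD135 counts were 16, 22 and 18 against 16, 26 and 16. The antibody therefore had little room to differ, and these values cannot show whether Flt3 RNA and its protein part. Median CD48 antibody values were 0.29, -0.26 and 0.39 against 0.56, 0.16 and 0.39, so CD48 hardly differed in the Mll4-labelled library. Kit RNA, whose protein set no threshold, had 262, 243 and 400 CPM against 290, 261 and 420, lower in 3 of 3 libraries by a log2 of -0.09 ± 0.04 (adjusted p = 0.16).

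Of the 14 platelet and megakaryocyte genes, 7 were higher and none lower, with a median of 0.29. Vwf, the von Willebrand factor gene whose expression marks platelet-biased stem cells (chromosome 6, 125546774-125686679), had 28.9, 60.4 and 68.0 CPM in CD34-low and 5.17, 11.9 and 15.6 in CD34-high cells. The sets did not overlap, and the log2 fold change of 2.35 ± 0.09 had an adjusted p of 2.3e-14. In cells thinned to 3000 UMIs, a Vwf UMI was found in 6.17%, 14.7% and 17.6% of CD34-low, 0.970%, 2.55% and 5.83% of CD34-high and 0.232%, 0.313% and 0.663% of MPP4 cells. Unthinned shares were 23.9%, 42.0% and 51.2% in CD34-low and 1.73%, 1.41% and 2.36% in MPP4 cells. Gp1bb and Gp9, subunits of the Vwf receptor, were higher by 1.30 ± 0.37 (adjusted p = 0.039) and 0.39 (adjusted p = 0.0088), as were Itgb3, Cd9, Fli1 and Zfpm1. Pf4, platelet factor 4, had 170, 60.9 and 110 CPM against 54.1, 33.5 and 18.9. It was higher in each library but varied in size, and its log2 value of 1.44 ± 0.37 had an adjusted p of 0.19. Itga2b, the CD41 integrin, was at 0.27 (adjusted p = 0.23).

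Among 7 tested erythroid genes, Epor, Car2 and Blvrb were higher and Cnrip1 lower, and Gata1, the master factor of that lineage, was at -0.16 (adjusted p = 0.65). Of 8 tested lymphoid priming genes, 5 were lower and 1 higher, with a median of -0.74, while Il7r, Rag1, Rag2 and Ccr9 were below the low-count filter. Dntt, the terminal transferase of early lymphoid cells, fell by 1.14 ± 0.28 on the log2 scale (adjusted p = 0.0058) and Satb1, a chromatin organiser of lymphoid cells, by 1.22 ± 0.26 (adjusted p = 0.0029). Cd27, a costimulatory receptor, had 99.7, 79.7 and 73.9 CPM against 140, 124 and 88.9, with a log2 value of -0.48 ± 0.06 (adjusted p = 4.8e-06). The sets overlapped between libraries, and each pair was lower in CD34-low cells. Flt3, which encodes an antigen of the rule, was also among the lower genes, and Mef2c was higher by 0.27 ± 0.04. Of 12 tested myeloid progenitor genes 1 was higher, Gfi1 by 0.66 ± 0.18 (adjusted p = 0.010), and 1 lower, Cebpa, a factor needed for granulocyte formation, with -1.40 ± 0.27 (adjusted p = 0.00077).

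Cell cycle genes were lower in CD34-low cells. All 16 S phase genes were lower with a median of -0.37, and 13 of 16 G2M phase genes were lower with a median of -0.61. Cdk1, Ube2c and Nusap1 did not pass. After each cell was thinned to 3000 UMIs, 16 S phase and 15 G2M phase genes were lower and 15 long-term HSC genes higher. Mki67, which encodes the Ki-67 antigen of dividing cells, had 234, 237 and 259 CPM in CD34-low and 343, 416 and 483 in CD34-high cells, and fell by 0.73 ± 0.06 (adjusted p = 2.3e-05). Pcna, the sliding clamp of DNA polymerase, had 216, 241 and 216 CPM against 250, 323 and 254, and Rrm1, a ribonucleotide reductase subunit, fell by 0.45 ± 0.05 (adjusted p = 8.6e-07). Cdk6, the kinase that sets how fast HSCs leave rest, had 138, 120 and 193 CPM against 227, 241 and 314. Its sets did not overlap, and it fell by 0.80 ± 0.05 (adjusted p = 6.3e-08). Of the 14 genes of G1 control, Cdk6, Ccne2, Cdk2, Cdkn2c and E2f1 were lower and Ccnd1, Ccnd2, Ccnd3, Cdkn1a and Cdkn1c were higher. Ccnd2, a D-type cyclin, had 350, 443 and 508 CPM against 274, 321 and 431 (log2 0.38 ± 0.04, adjusted p = 3.5e-06).

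Cells with RNA of the G2M phase list were counted after thinning each cell to 3000 UMIs. At least 2 UMIs of the list were found in 38.0% (34.9 to 41.2), 40.2% (37.4 to 43.0) and 53.9% (47.4 to 60.2) of CD34-low cells and in 55.0% (51.3 to 58.7), 61.7% (59.2 to 64.2) and 79.6% (70.5 to 86.9) of CD34-high cells. The intervals, which cover the sampling of cells only, did not overlap within any library. Unthinned shares were 78.3%, 81.5% and 97.2% against 88.4%, 91.3% and 100%. Hmgb2, a DNA-binding protein also made by resting cells, gave 41.3%, 40.5% and 41.9% of the list's UMIs in CD34-low cells. Without it the shares were 18.3%, 20.8% and 30.6% against 29.2%, 42.1% and 53.4%.

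Of 14 tested immediate early genes, which respond quickly to stimuli, 10 were higher and none lower, with a median of 0.37. Fos, an AP-1 subunit, had 45.6, 148 and 36.5 CPM against 32.3, 88.0 and 31.2. It was higher in each pair, by a log2 of 0.64 ± 0.07 (adjusted p = 1.4e-05), while the difference between the Mll3-labelled library and the others was larger. Klf6, a zinc finger factor, had 37.3, 74.0 and 49.7 CPM against 24.8, 46.9 and 35.5 (log2 0.63 ± 0.06, adjusted p = 5.5e-07). Of 15 tested interferon response genes 10 were higher and none lower, with a median of 0.43. Ifitm3, a membrane protein that blocks virus entry, had 975, 880 and 768 CPM against 744, 584 and 574. The sets did not overlap, with a log2 fold change of 0.49 ± 0.04 (adjusted p = 2.8e-08). Iigp1, an interferon-inducible GTPase, had 96.0, 219 and 79.1 CPM against 58.9, 123 and 61.3 (log2 0.73 ± 0.07, adjusted p = 6.3e-06).

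Within libraries the interferon list had medians of 0.42, 0.47 and 0.01, so the Mll4-labelled cells showed least of this difference, which was not tested between libraries. None of the 5 MHC class II genes passed, although Cd74, their invariant chain, had 170, 271 and 226 CPM against 77.4, 109 and 151 (log2 1.08 ± 0.20, adjusted p = 0.11). Medians of the 5 genes within libraries were 0.92, 0.82 and 0.01, with 5, 5 and 3 genes above 0. Without the Mll3-labelled library, or without the Mll4-labelled library, 4 of the 5 passed. Of 12 genes of Myc and ribosome biogenesis, Mycn was higher and Myc lower. Mycn had 79.7, 183 and 117 CPM against 54.9, 84.5 and 51.7 (log2 0.96 ± 0.16, adjusted p = 0.043), and Myc had 87.5, 84.9 and 116 against 103, 118 and 139 (log2 -0.32 ± 0.05, adjusted p = 0.0002). Ncl and Npm1, nucleolar proteins of ribosome assembly, were at -0.08 (adjusted p = 0.071) and 0.03 (adjusted p = 0.45).

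The genes with the highest fold change that moved the same way in every library were of low level. Lcn2, a neutrophil granule protein, had 0.483, 12.9 and 83.1 CPM in CD34-low against 0.195, 0.110 and 2.65 in CD34-high cells, and Cldn5, a tight junction protein, had 0.080, 1.37 and 13.4 against 0, 0 and 1.99. In the control library these were 6 against 2 UMIs for Lcn2 and 1 against 0 for Cldn5. The shared direction of these genes thus rests on very few control UMIs. Inhba, the activin A subunit, had 1.53, 8.91 and 10.2 CPM against 0.195, 1.03 and 0.332, with a log2 fold change of 3.26 ± 0.28 (adjusted p = 4.3e-08). Gkn3, a gene found in HSCs and arterial endothelium, had 3.62, 19.2 and 3.34 CPM against 1.27, 2.17 and 0.663 (log2 2.85 ± 0.24, adjusted p = 2.4e-07). Cyp26b1, an enzyme that breaks down retinoic acid, had 4.02, 10.3 and 2.71 CPM against 1.66, 0.882 and 0.332. The sets did not overlap (log2 2.82 ± 0.39, adjusted p = 0.00079), and removing the cells with the highest doublet scores took its adjusted p to 0.055. Cxcl10, an interferon-inducible chemokine, had 8.29, 11.3 and 20.2 CPM against 2.24, 1.03 and 3.32 (log2 2.82 ± 0.24, adjusted p = 1.1e-06). Hp, Cybb, Eya4, Ly6d, Fcnb and Tm4sf1 completed the 12, of which Hp had 4 against 1 and Fcnb 2 against 1 UMIs in the control library.

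Among the 12 most reduced genes were Flt3, Cd48 and Cd34 themselves. Tespa1, a gene of T-cell receptor signalling, had 2.65, 0.437 and 3.98 CPM against 12.3, 4.45 and 15.6 (log2 -2.35 ± 0.22, adjusted p = 2.4e-07), and Cd244a, a receptor of the same SLAM family as CD150 and CD48, had 1.37, 0.547 and 0.796 against 7.02, 2.57 and 2.65 (log2 -2.20 ± 0.28, adjusted p = 8.3e-06). Lat2, a linker for antigen receptor signals, had 4.99, 4.21 and 3.66 CPM against 16.6, 18.8 and 5.97 (log2 -1.82 ± 0.17, adjusted p = 6.7e-07). All 3 were lower in every library, and their sets did not overlap. Tmprss3, Thy1, Bex6, Il18r1, Hnf4a and Clec4e were the remaining 6.

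Markers of mature cells moved with some of these genes. The 7 neutrophil markers summed to 18.0, 156 and 3092 CPM in CD34-low against 14.7, 6.36 and 132 in CD34-high cells, with Retnlg and Mmp8 at 0 in control CD34-low cells, and 97.0% of the Mll3-labelled and 96.5% of the Mll4-labelled UMIs came from 10 cells. The 10 B and plasma cell markers summed to 817, 71.4 and 1761 against 59.8, 68.9 and 236, with Ebf1 and Igll1 at 0 in control CD34-low cells, and the 5 erythrocyte markers to 62.0, 89.0 and 2192 against 68.5, 45.2 and 285. In the CD34-low sets, 10 cells gave 93.2%, 4.98% and 86.7% of the B and plasma cell marker UMIs. For the erythrocyte markers 10 cells gave 24.9%, 19.6% and 86.2%. The 10 T and NK cell markers summed to between 21.5 and 59.5 CPM, with Cd3e at 0 in all 3 CD34-low sets. The 10 monocyte markers summed to between 309 and 330 CPM against 190 to 290, and 5 of the 6 tested were higher. Medians of these 6 within libraries were 1.35, 0.05 and 1.70, with 5, 3 and 6 genes above 0. In 3, 1 and 5 CD34-low cells, and in 0 CD34-high cells, over 0.2% of UMIs came from the markers of 1 such cell type, erythrocytes left out. Without these cells 1023 genes were higher and 1023 lower, Lcn2, Hp, Cybb, Ly6d and Fcnb fell under the low-count filter, and Cldn5 and Eya4 were at 3.63 and 2.89.

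Levels of several genes ran along the CD34 axis without a step at the threshold. Over HSC-gate cells ordered into bins of CD34 value, Vwf went in the control library from 54.3 to 35.4, 14.7, 6.80 and 3.08 CPM and ended at 3.39 from 3 UMIs. In the Mll4-labelled library it went from 121 to 57.7, 28.0, 19.4 and 13.7. In the Mll3-labelled library it went from 138 CPM in the 30 cells with the lowest CD34 to 3.45 in the 110 cells with the highest. Within the CD34-low range alone, Vwf thus differed severalfold between the lowest bin and the bin next to the threshold in each library. Mllt3 followed the same order, from 221 to 73.5, from 355 to 38.0 and from 316 to 92.3 CPM. The summed platelet and megakaryocyte list did not, with 726, 710 and 632 CPM in the bins of lowest CD34. It had 876, 764 and 650 CPM in the bins just below the threshold and 622, 613 and 489 in those just above it.

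Summed long-term HSC genes went from 2739 to 2071 CPM in control, from 3390 to 1796 in Mll3-labelled and from 3207 to 2244 in Mll4-labelled cells. Hlf stayed between 330 and 370, 282 and 372, and 342 and 440 CPM, with no order along CD34. The summed G2M phase list was lowest in the second bin in control cells, at 1711 CPM, and in Mll3-labelled cells, at 1556, and in the first bin in Mll4-labelled cells, at 1564, and it was 3306, 5278 and 4246 at its highest. The first bin had 2072 CPM in control cells. In the Mll3-labelled library the first bin, of 30 cells, had 3142 CPM, above the 2721 of the bin just above the threshold. These are descriptions of the cells the rule arranges, with 1 value per bin and library.

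**Figure D3:**
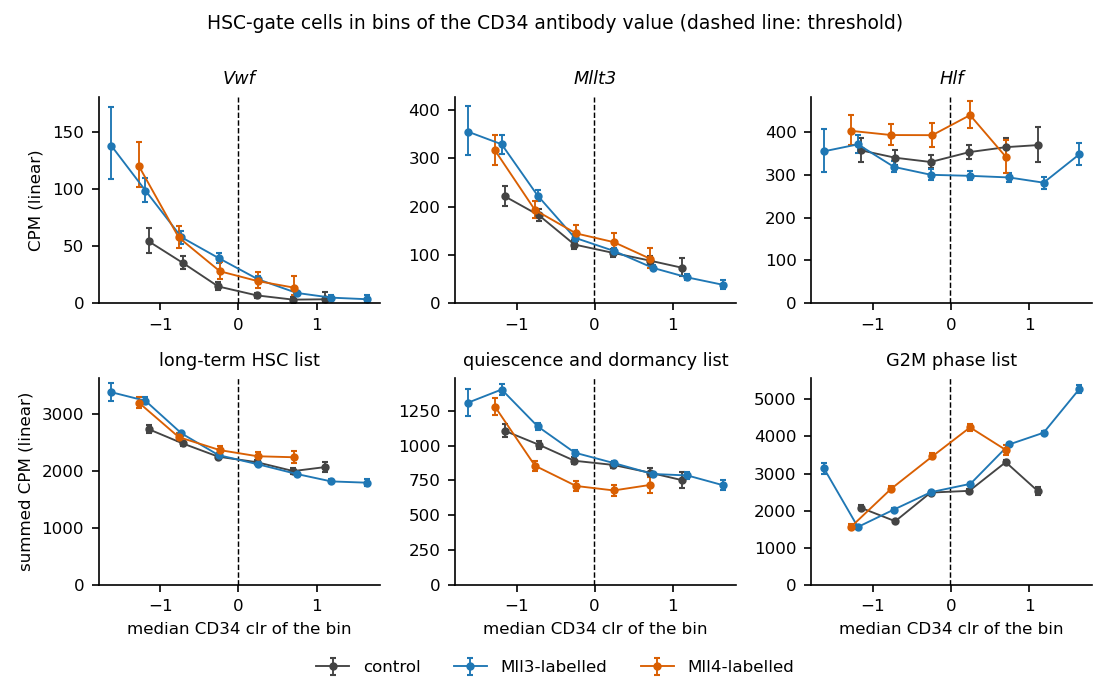
Levels in CPM of Vwf, Mllt3 and Hlf and summed levels of the long-term HSC, quiescence and G2M phase lists, against the median CD34 value of each bin of HSC-gate cells, 1 line per library, with exact Poisson 95% intervals and the CD34 threshold as a dashed line. In the control library Vwf runs from 54.3 to 3.39 and Mllt3 from 221 to 73.5 CPM from the lowest to the highest CD34 bin, while Hlf stays between 330 and 370.

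The gate nearest to the HSC gate is MPP1, multipotent progenitors that share its CD48 and CD135 limits but have CD150 at or below the threshold, with any CD34 value. It held 1071, 1048 and 285 cells. Their median CD34 values were 0.927, 1.47 and 0.914, against -0.552, -0.648 and -0.756 in CD34-low cells. The sets thus differ in CD34 as well as in CD150. This comparison uses the same CD34-low sums as the one above, so both are not independent. CD34-low cells had far more RNA of platelet, quiescence and stem cell genes than MPP1 cells, and no broad difference in cell cycle genes passed the test. Of 12727 genes tested, 933 were higher (7.33%) and 951 lower (7.47%), of which 335 and 167 differed at least 2-fold. DESeq2 gave 468 and 396 genes, thinning gave 397 and 356, and edgeR without the library block gave 6 and 2. Without the control library 576 and 529 genes passed, and without the Mll3-labelled library 500 and 517.

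Markers of other cell types differed between these sets mainly in the Mll4-labelled library. Cells with over 0.2% of UMIs from such markers, erythrocytes left out, numbered 2, 2 and 26 in MPP1 against 3, 1 and 5 in CD34-low cells. In Mll4-labelled cells the neutrophil markers summed to 6302 CPM in MPP1 against 3092 in CD34-low cells, the 8 mast cell and basophil markers to 370 against 41.9, the erythrocyte markers to 465 against 2192 and the B and plasma cell markers to 256 against 1761. The neutrophil markers summed to 19.5 and 229 CPM in control and Mll3-labelled MPP1 cells, and the monocyte markers to 297, 302 and 370. Without the cells over 0.2%, 984 genes were higher and 984 lower.

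Of the 14 platelet and megakaryocyte genes 12 were higher than in MPP1 cells and none lower, with a median of 1.30. Vwf had 28.9, 60.4 and 68.0 CPM against 2.23, 1.96 and 1.01 (log2 4.72 ± 0.33, adjusted p = 0.0041). Itga2b had 32.0, 27.4 and 32.0 CPM against 14.0, 8.41 and 10.4, and Pf4 had 170, 60.9 and 110 against 30.9, 6.65 and 15.2 (log2 2.76 ± 0.15, adjusted p = 0.00041). All 3 were apart from MPP1 without overlap. Of 7 tested erythroid genes 5 were higher and 1 lower, and among the higher was Gata1 with 9.74, 4.59 and 5.25 CPM against 1.41, 0.913 and 0.575 (log2 2.67 ± 0.25, adjusted p = 3.1e-05). Quiescence genes were higher for 6 of 11 with a median of 1.57, and Clu had 5.07, 20.1 and 23.6 CPM against 0.223, 0.196 and 0.144 (log2 6.18 ± 0.31, adjusted p = 6.1e-07).

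The long-term HSC list had 12 genes higher and 1 lower of 20 against MPP1, with a median of 0.78. Gata2, a factor shared by stem and megakaryocytic cells, had 164, 176 and 157 CPM against 91.5, 97.9 and 76.4 (log2 0.90 ± 0.05, adjusted p = 1.3e-06). Slamf1 belongs to the rule here too, with 3.86, 2.15 and 2.59 CPM in MPP1 cells. Hlf was the gene that was lower, with 337, 322 and 406 CPM against 505, 423 and 454 (log2 -0.39 ± 0.07, adjusted p = 0.0095), so that the CD34-low set had less Hlf than MPP1 in all 3 libraries. Procr was at 0.39 ± 0.21 (adjusted p = 0.38) and Mllt3 at 1.62 ± 0.29 (adjusted p = 0.10). Mllt3 had 70.8, 46.8 and 77.3 CPM in MPP1 cells, below each CD34-low value.

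Of 9 tested lymphoid priming genes 4 were lower than in MPP1 cells and 1 higher, with a median of -0.86. Flt3, an antigen of both gates, had 46.0, 52.4 and 53.5 CPM in MPP1 cells. A single S phase gene (Mcm7) and a single G2M phase gene (Hmgb2) of 16 each were lower. Without the control library 13 of the 16 G2M phase genes were lower, so the count for this list depended on the control library, in which 43.8% of thinned MPP1 cells had at least 2 UMIs of it, against 56.9% and 60.7% in the other libraries. Among the strongest increases were Gkn3 (log2 6.77 ± 0.40, adjusted p = 1.6e-06), Cavin2, a caveola protein with 57.0, 107 and 43.3 CPM against 1.26, 0.521 and 0.575 (log2 6.50 ± 0.29), Clu, Lbhd2 and Matn4. The strongest decreases were Bpifc, Tespa1, Flt3, Wfdc18, Ccl3, a chemokine with 0.322, 0.328 and 1.91 CPM against 5.94, 8.54 and 12.7, and Cd244a.

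CD34-low cells also varied among themselves. Each library's members were split at their median CD201 value into 479 and 479, 604 and 604, and 123 and 123 cells. CD201-upper cells had fewer UMIs, with medians of 10098, 11478.5 and 20424 against 13043, 15730 and 26160, and lower CD34 values, with medians of -0.655, -0.820 and -0.953 against -0.454, -0.471 and -0.615. Most listed genes of mitosis, ribosome assembly and erythroid cells were lower in the CD201-upper cells, as were 7 of 14 megakaryocyte genes, of which 1 other was higher. Higher were 11 of 20 long-term HSC, 11 of 14 immediate early, 10 of 15 interferon response and 4 of 5 MHC class II genes. Of 11801 genes tested, 1876 were higher (15.9%) and 2114 lower (17.9%), of which 341 and 372 differed at least 2-fold. DESeq2 gave 637 and 1228, thinning gave 670 and 940, and edgeR without the block gave 15 and 105. Without the control library 1093 and 1524 genes passed, and without the Mll3-labelled library 919 and 1177.

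Of the 20 long-term HSC genes, 11 were higher in CD201-upper cells and 1 (Ctnnal1) lower, with a median of 0.47. Procr, which encodes CD201 itself and so is a description, had 122, 124 and 76.7 CPM against 25.8, 29.1 and 18.3. Hlf had 502, 464 and 509 CPM against 216, 223 and 327, without overlap (log2 0.97 ± 0.10, adjusted p = 0.00012). Mllt3 had 228, 320 and 289 CPM against 111, 134 and 169, also without overlap (log2 1.02 ± 0.08, adjusted p = 2e-06). Mecom had 197, 224 and 543 CPM against 132, 124 and 331 (log2 0.71 ± 0.07, adjusted p = 2.1e-06), so that each pair was higher while the Mll4-labelled CD201-lower cells exceeded 2 of the CD201-upper sets. Slamf1 was at 0.00 (adjusted p = 1), and Pdzk1ip1, Gata2, Meis1 and Esam did not pass.

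Quiescence genes did not move as 1 group: Cdkn1c, Neo1, Sult1a1, Ndn and Txnip were higher and Clca3a1 and Clu lower. Sult1a1 had 46.6, 78.7 and 35.4 CPM against 13.7, 18.6 and 11.9 (log2 1.88 ± 0.11, adjusted p = 8.1e-09), and Txnip, an inhibitor of thioredoxin, had 837, 911 and 613 against 468, 472 and 358 (log2 0.85 ± 0.06, adjusted p = 3.3e-08). Both were apart without overlap. Clu was at -0.80 ± 0.16 (adjusted p = 0.0013).

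Megakaryocyte genes parted in the CD201 split. Vwf had 27.4, 70.1 and 73.0 CPM in CD201-upper against 30.006, 53.6 and 64.1 in CD201-lower cells, lower in 1 library and higher in 2 (log2 0.18 ± 0.10, adjusted p = 0.19). Of the list's 14 genes 7 were lower: Itga2b, Gp1bb, Gp9, Cd9, Treml1, Gfi1b and Zfpm1. Selp was higher. Itga2b had 12.2, 7.98 and 6.94 CPM against 46.6, 40.9 and 51.4 (log2 -2.30 ± 0.14, adjusted p = 2.4e-08), with a wide gap between the sets. Pf4 had 158, 10.2 and 19.7 CPM against 180, 96.2 and 180, so that the control library stood apart from the others, and it did not pass (log2 -1.92 ± 1.03, adjusted p = 0.32). Of 7 erythroid genes Gata1, Klf1, Epor, Car2 and Tfrc were lower and Cnrip1 higher. Gata1 had 1.14, 0.399 and 0 CPM against 16.1, 7.52 and 9.31, and was the gene with the lowest fold change of those named (log2 -4.18 ± 0.35, adjusted p = 2.8e-07).

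**Figure D4:**
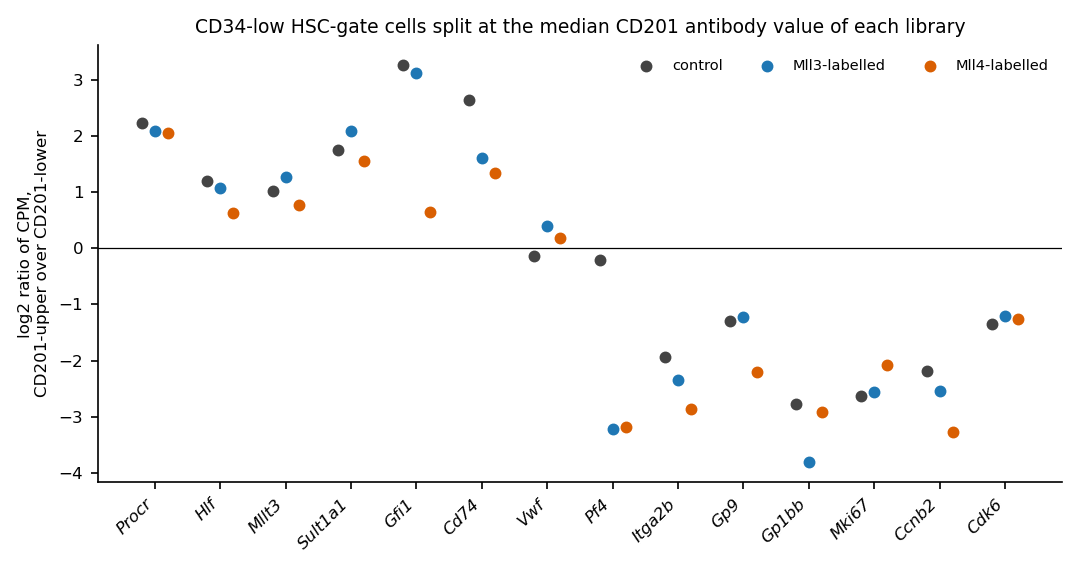
The log2 ratio of CPM between CD201-upper and CD201-lower CD34-low cells for 14 genes, 1 point per library. Procr, Hlf, Mllt3, Sult1a1, Gfi1 and Cd74 lie above 0 and Itga2b, Gp9, Gp1bb, Mki67, Ccnb2 and Cdk6 below 0 in each library, Vwf lies near 0, and for Pf4 the control point lies apart from the other 2.

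Of 16 G2M phase genes 15 were lower in CD201-upper cells, with a median of -2.23, and of 16 S phase genes 11 were lower, with a median of -1.11. Mki67 had 59.1, 60.9 and 92.0 CPM against 363, 359 and 389 (log2 -2.43 ± 0.10, adjusted p = 5.3e-08). Cdk6 had 73.2, 67.7 and 108 CPM against 185, 157 and 258 (log2 -1.27 ± 0.07, adjusted p = 1.6e-09). The sets were apart for both genes. With each cell thinned to 3000 UMIs, 15 G2M phase genes were lower and 9 long-term HSC genes higher. Of 12 Myc and ribosome biogenesis genes 9 were lower and Mycn higher, with a median of -0.34.

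Of 14 immediate early genes 11 were higher and of 15 interferon response genes 10 were higher in CD201-upper cells, with medians of 0.66 and 0.48, and none was lower in either list. Of 5 MHC class II genes 4 were higher with a median of 1.02. H2-Aa, the class II alpha chain, had 178, 239 and 188 CPM against 64.2, 118 and 90.0, without overlap (log2 1.18 ± 0.08, adjusted p = 2.8e-07). With the cells of highest doublet scores removed, 2 of the 5 passed. Markers of monocytes and macrophages, which also express MHC class II, moved with them: of 7 tested, 3 were higher (C1qc, Cd68 and Ms4a7) and none lower, with a median of 1.97. C1qc, a complement subunit of macrophages, had 7.60, 0.399 and 17.9 CPM against 1.12, 0.928 and 3.10, so that it was higher in 2 of the 3 libraries (log2 1.97 ± 0.57, adjusted p = 0.035). All 10 markers of the list summed to 393, 410 and 322 CPM in CD201-upper against 284, 272 and 299 in CD201-lower cells, with Lyz1 at 0 in both sets of the control and Mll3-labelled libraries. Without the cells high in markers of another cell type, 4 of the 5 MHC class II genes were still higher.

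Gfi1, a repressor that restrains HSC division, had 15.4, 18.8 and 5.84 CPM against 1.53, 2.13 and 3.67 (log2 2.73 ± 0.40, adjusted p = 0.0025). Gimap4, a GTPase of the immunity-associated family, had 31.9, 53.6 and 25.6 CPM against 7.68, 7.61 and 4.51 (log2 2.50 ± 0.16, adjusted p = 2.3e-08), and its neighbour Gimap3 was also among the 6 most increased genes, with Shisa9, Cyp26b1 and Creb5. Ache, Klf1, Gp1bb, Tuba8 and Pif1 joined Gata1 among the 6 most reduced. Cells with over 0.2% of UMIs from another cell type's markers numbered 3, 1 and 1 in the CD201-upper and 0, 0 and 4 in the CD201-lower sets, and without them 1941 genes were higher and 2166 lower.

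CD34-low cells were then compared between genotypes. With 1 library per genotype there is no test: a gene was counted when it differed at least 2-fold from the control and its 95% counting interval left out 0. Both comparisons share the control library. Of 3226 genes that reached 50 CPM in the Mll3-labelled or the control CD34-low cells, 19 were higher (0.589%) and 24 lower (0.744%) in the Mll3-labelled cells. The median log2 ratio of these genes was 0.11, or 0.03 after TMM scaling. A minimum of 20 CPM gave 51 and 55 genes and one of 100 CPM 12 and 11, and a total without mitochondrial and ribosomal protein genes gave 38 lower.

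Immediate early genes were higher in the Mll3-labelled cells. Of the 12 with at least 20 CPM, 7 were at least 2-fold higher and none lower, all 12 intervals lay above 0 and the median log2 ratio was 1.02. Over all genes with at least 20 CPM, 0.79% were at least 2-fold higher and 0.852% lower, 39.0% had an interval above 0 and 19.2% below 0, and the median was 0.09. Fosb, an AP-1 subunit, had 209 CPM against 46.1 in control (log2 2.18, interval 2.05 to 2.31), Fos 148 against 45.6 (1.70, 1.57 to 1.84) and Egr1, a zinc finger factor, 154 against 62.6 (1.30, 1.18 to 1.42). The same genes were higher in the Mll3-labelled CD34-high cells, by 1.88, 1.45 and 1.46. In the Mll4-labelled CD34-low cells Fosb was at 0.04 (-0.17 to 0.25).

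Other genes named as higher in the Mll3-labelled CD34-low cells were Mt1, a metallothionein with 125 CPM against 41.8 (1.58, 1.44 to 1.72), Slfn2, a regulator of immune cell quiescence with 99.7 against 35.1 (1.51, 1.36 to 1.66), Cish, a target of STAT5 with 84.0 against 30.3 (1.47, 1.31 to 1.64), Klk8 and Bex4. Mycn was higher by 1.20 (1.10 to 1.30), and of 8 quiescence genes with at least 20 CPM, 2 were at least 2-fold higher, Ndn at 1.41 and Clu at 1.98. All 8 had intervals above 0, as did 39.0% of all genes at that level. Vwf was higher by 1.06 (0.89 to 1.24) and Pf4 lower, at -1.48 (-1.59 to -1.38). Of 17 long-term HSC genes none was 2-fold higher and Mmrn1 was lower, at -1.27. Procr was at 0.03 (-0.10 to 0.16), Mecom at 0.05 (-0.04 to 0.13), Slamf1 at 0.05 (-0.12 to 0.22) and Hlf at -0.07 (-0.12 to -0.01).

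Genes lower in the Mll3-labelled CD34-low cells included Lst1 with 14.6 CPM against 69.8 (-2.26), Fyb, an adaptor of immune receptor signals, with 23.1 against 91.5 (-1.99), Serpinb1a with 18.3 against 69.2 (-1.92), Tspan32 with 58.5 against 183 (-1.64), Rnase6, Ramp1 and Tmsb10. All 7 were also lower in the Mll3-labelled CD34-high cells, between -1.003 and -2.46. Jchain, the joining chain of secreted antibodies, had 5.74 CPM against 75.7 (-3.72), but was at 0.32 without the cells high in markers of another cell type. The control library had 3 such cells among its CD34-low cells.

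In the Mll4-labelled CD34-low cells, among 3181 genes with at least 50 CPM, 108 were higher (3.4%) and 62 lower (1.95%), with a median log2 ratio of -0.09. A minimum of 20 CPM gave 197 and 136 genes, one of 100 CPM 35 lower, and thinning 101 lower. The 8 most increased genes were S100a8, S100a9, Chil3, Lcn2, Ngp and Camp, which encode proteins of neutrophils or their granules, and Mpo and Elane, which encode enzymes of primary granules. S100a8 had 1212 CPM against 5.71 (log2 7.72) and S100a9 1487 against 8.93 (7.37). Without the cells high in markers of another cell type the 6 neutrophil genes were at 3.33, 2.32, 2.61, 3.15, 2.81 and 2.36. Mpo had 115 CPM against 4.02 (4.82, 4.42 to 5.28) and stayed at 4.86 without those cells, and Elane had 53.2 against 2.58 (4.35, 3.84 to 4.94) and stayed at 4.38. In CD34-high cells Mpo and Elane were higher by 4.49 and 4.29. S100a8, S100a9, Ngp and Camp are themselves among the markers that define those cells. In the whole Mll4-labelled library 1896 of 4793 cells (39.6%) were high in markers of another cell type, and their part in the result was not tested.

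Stem cell genes differed gene by gene in the Mll4-labelled CD34-low cells. Of 17 long-term HSC genes with at least 20 CPM, Mecom and Ctnnal1 were at least 2-fold higher, against 3.02% of all genes at that level, and the list's median was 0.14 with all genes at -0.06. Mecom had 423 CPM against 160 (log2 1.41, 1.32 to 1.49). Procr was lower, at -0.60 (-0.81 to -0.41), and Hlf and Slamf1 higher, at 0.27 (0.20 to 0.34) and 0.35 (0.13 to 0.56). Of 9 quiescence genes, Neo1 was higher by 3.08 (2.69 to 3.50), Clca3a1 by 1.90 and Clu by 2.21. The list's median was 0.01, with 4 intervals above and 3 below 0, so that it did not move as 1 group. Vwf was higher by 1.23 (1.03 to 1.44) and Gp9 lower, at -1.78.

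In the same cells, 1 of 10 interferon response genes was at least 2-fold lower, Ifitm1 at -1.34, and none 2-fold higher. The list's median was -0.48 and 9 intervals lay below 0, against 36.2% of all genes with at least 20 CPM below 0 and 26.0% above. Of 11 immediate early genes 4 were at least 2-fold lower (Jund, Ier2, Ier3 and Dusp1), against 2.09% of all genes with at least 20 CPM, with a median of -0.67, so that the list's medians lay on opposite sides of the control in the Mll3-labelled and Mll4-labelled cells. The most reduced genes included Ltb, lymphotoxin beta, with 25.0 CPM against 168 (-2.75, -2.99 to -2.52), Gmfg, an actin regulator, with 47.8 against 243 (-2.35), Tspan32 with 42.3 against 183 (-2.11, -2.30 to -1.93), Apoe with 202 against 835 (-2.05, -2.13 to -1.96), Myl10, S100a6 and Rnase6. Tpm3-rs7 had 3.98 CPM against 103 (-4.66), and its reads may be shared with Tpm3. Tspan32, Apoe, Ltb, Gmfg, Myl10 and S100a6 were lower in the Mll4-labelled CD34-high cells too, between -1.59 and -2.67.

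**Figure D5:**
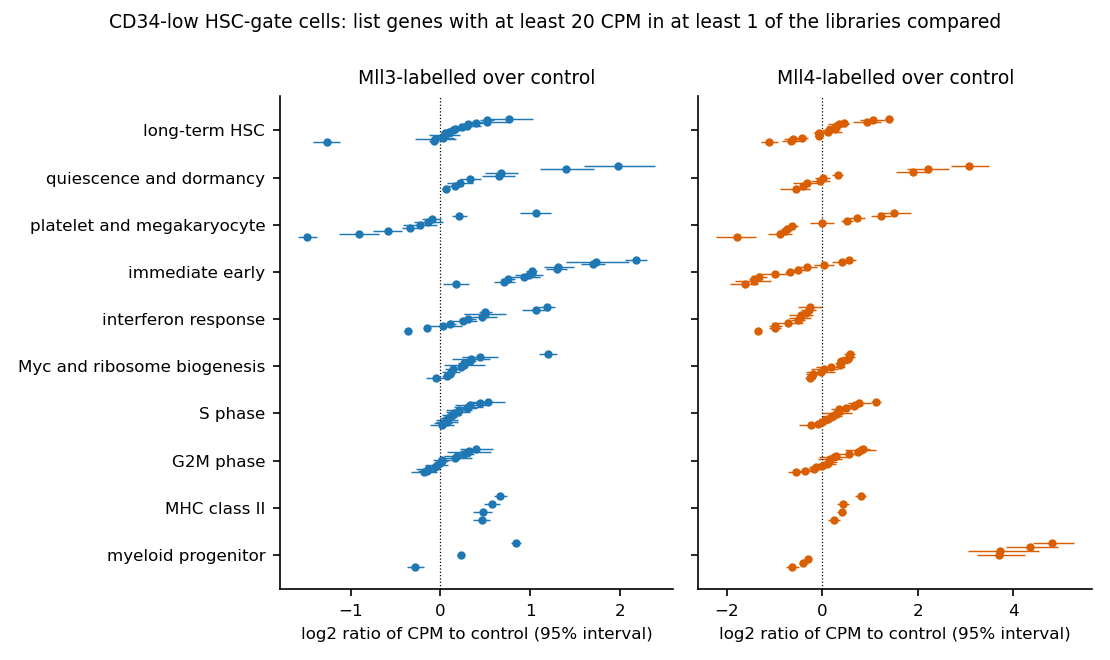
The log2 ratio to control of genes with at least 20 CPM in 10 gene lists, within CD34-low cells, with 95% counting intervals, for the Mll3-labelled library on the left and the Mll4-labelled library on the right. All 12 immediate early genes lie above 0 on the left, and 4 myeloid progenitor genes lie far to the right of 0 in the Mll4-labelled panel.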

How the data were processed

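Single-cell RNA and antibody libraries of 3 of the series' 4 genotypes were used, 1 library each, and a library took its genotype from its title. The deposited values were whole-number UMI counts of genes and tag counts of antibodies for each cell, made with Cell Ranger 6.1.1 on build mm10 per the submitters' processing notes. How barcodes were chosen for the deposited matrices is not given in the sources used here. Barcodes with 1000 genes or more and no more than 10% mitochondrial UMIs were kept, and cells were gated on the antibody values. Counts were summed per library and cell set, which is possible because each library gives both sets of a comparison, so the library was the block (the pairing comes from the shared library, not from replicate numbers). Sums were tested with edgeR 4.0.16 in R 4.3.3 (quasi-likelihood, TMM scaling, filterByExpr, Benjamini-Hochberg over all genes tested, threshold 0.05), after the code was tested on simulated data. DESeq2 1.42.0 was an alternative. Genotype ratios added 0.5 UMIs and have exact conditional binomial intervals at 95%, which cover counting error only, and PCR duplicates were collapsed by UMI. Scrublet (scanpy 1.11.5) called too few doublets to have worked in 2 of the 3 libraries, so none were removed, and removal of the top scores was an alternative.

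Named genes were, per edgeR comparison, the 12 highest and 12 lowest fold changes among genes that passed with 1 direction in every library (6 and 6 for the MPP1 and CD201 comparisons), and per genotype comparison the 8 highest and 8 lowest by the interval bound nearest 0 among genes with at least 50 CPM. Mitochondrial, ribosomal protein, haemoglobin, antigen receptor segment, Xist, Tsix, Y-linked and unnamed genes were left out, and members of the gene lists could be named as examples. The members, the 24 gene lists (8 of them for other cell types) and the tests were chosen with earlier results of these data known. Coordinates are from GENCODE M21 on GRCm38, which held 32158 of the 32285 gene identifiers. The libraries' sequencing depth per cell differed, and thinning each cell to 3000 UMIs was an alternative for this. Results of some genes of the lists and of the named genes are not reported here.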

Additional observations from a re-analysis of the deposited data

How the results depend on the processing

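DESeq2 called 348 higher and 413 lower genes between CD34-low and CD34-high cells, 468 and 396 against MPP1 cells, and 637 and 1228 in the CD201 split. Cells thinned to 3000 UMIs gave 532 and 492, 397 and 356, and 670 and 940. Each library gives both cell sets, so the library is the replicate block: without it edgeR called 0 and 0 (DESeq2 with the block 348 and 413, and 511 genes in edgeR at an unadjusted p under 0.05), 6 and 2, and 15 and 105. Leaving out 1 library leaves 2 pairs and gave 459 to 978 higher and 483 to 1097 lower genes against CD34-high cells, 500 to 987 and 517 to 891 against MPP1 cells, and 919 to 2233 and 1177 to 2605 in the CD201 split, with the lowest counts always without the Mll3-labelled library. Of the named genes, Lcn2, Hp, Cybb, Eya4 and Ly6d lost their call with the CD34 threshold 0.3 lower, Lcn2 without the cells near it, Cldn5, Ly6d, Fcnb and Tmprss3 in DESeq2, Tmprss3 without the Mll3-labelled library, Cyp26b1 without the highest Scrublet scores, Cd48 after thinning, and Tespa1 against MPP1 without the control library or without cells high in markers of another cell type; the cause was not tested. Some named genes of low level fell under the low-count filter in an alternative and then had no value. Between genotypes, a minimum of 20 CPM gave 51 higher and 55 lower genes in Mll3-labelled and 197 and 136 in Mll4-labelled cells, a minimum of 100 CPM gave 12 higher and 11 lower in Mll3-labelled and 35 lower in Mll4-labelled cells, a total without mitochondrial and ribosomal protein genes gave 38 lower in Mll3-labelled cells, and thinning gave 101 lower in Mll4-labelled cells. Jchain reversed in Mll3-labelled cells, to 0.44 without the highest Scrublet scores and 0.32 without cells high in markers of another cell type. Among the named genes, Kmt2c and Kmt2d, thinning moved 7 log2 ratios outside their interval in Mll3-labelled and 8 in Mll4-labelled cells. There, 11 and 10 stayed inside. The CD34 threshold 0.3 lower moved 3 and 5, as did the limits of 2000 genes and 5% mitochondrial UMIs. With the CD34 threshold 0.3 higher, members were 72.4%, 56.5% and 80.5% of the gate and 16.7%, 24.7% and 5.86% of cells, and with it 0.3 lower 41.2%, 35.2% and 56.4% and 9.51%, 15.4% and 4.11%. With 2000 genes or more and no more than 5% mitochondrial UMIs they were 12.4%, 18.4% and 6.41% of cells, and 59.8% of the control gate. The share of cells with G2M phase list UMIs was 65.3%, 66.2% and 78.0% in CD34-low and 76.2%, 80.2% and 90.3% in CD34-high cells at a minimum of 1 UMI, 24.3%, 26.6% and 38.4% against 39.2%, 49.4% and 68.9% at 3 UMIs, 55.0%, 55.4% and 73.8% against 67.7%, 74.3% and 90.2% with 5000 UMIs per cell, and, added after the data were seen, 18.3%, 20.8% and 30.6% against 29.2%, 42.1% and 53.4% without Hmgb2. CD34-low cells had the lower share in each library under each of these settings. Depth limits genes of a few CPM, whose library values rest on few UMIs.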

Other observations

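Genes of homing and adhesion did not move as 1 group. Of the 12 tested between CD34-low and CD34-high cells, 3 were higher (Vcam1, Itgb2 and Jam3) and 3 lower (Itga4, Cd44 and Selplg) in edgeR, with a median of -0.12. Jam3, a junctional adhesion molecule, had 9.74, 16.9 and 9.39 CPM against 5.75, 9.04 and 6.30 (log2 0.85 ± 0.13, adjusted p = 7.3e-05), and the sets did not overlap. Selplg, which encodes the ligand of P-selectin, had 34.7, 37.4 and 41.9 CPM against 49.9, 48.8 and 54.1, also without overlap (log2 -0.41 ± 0.06, adjusted p = 9.4e-05). In the CD201 split, Jam3 was again higher, with 14.6, 23.7 and 10.95 CPM in CD201-upper against 6.14, 12.2 and 8.18 in CD201-lower cells (log2 0.95 ± 0.16, adjusted p = 0.0003), and Alcam, another adhesion molecule, had 37.1, 28.7 and 44.2 CPM against 21.5, 15.9 and 26.8 (log2 0.79 ± 0.11, adjusted p = 3.6e-05).

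Of 14 tested genes of H3K4 methyltransferases and their partners, Paxip1 was lower in CD34-low than in CD34-high cells (log2 -0.34 ± 0.09, adjusted p = 0.0079) and none was higher, and Kmt2c and Kmt2d were at -0.01 and 0.02. In CD201-upper cells Kmt2a, the Mll1 gene, had 231, 198 and 177 CPM against 174, 163 and 163 (log2 0.27 ± 0.07, adjusted p = 0.0066). Nkg7, a granule protein of cytotoxic cells that was counted among the T and NK cell markers, had 34.8, 18.1 and 15.4 CPM in CD34-low against 78.5, 47.8 and 30.5 in CD34-high cells (log2 -1.23 ± 0.08, adjusted p = 3.2e-10). Klrb1c, an NK cell receptor of the same list, went the other way, with 1.45, 2.62 and 42.2 CPM against 0.975, 0.441 and 4.97 (log2 2.49 ± 0.32, adjusted p = 8.2e-05), and its level came mainly from the Mll4-labelled library. In the library with both genes deleted, which no comparison here uses, 191 of 4748 cells (4.02%, 3.48 to 4.62) passed the same antibody limits.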
